A study of Homo sapiens with 2 samples.

Results

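VEGFA and 9 other genes of the hypoxia pathway were followed in K562 cells that overexpress PML4, against K562 cells with the empty vector. The 10 genes are VEGFA, HIF1A, EPAS1, ARNT, CITED2, EGLN1, EGLN3, VHL, BNIP3 and ADM, out of 19775 genes that had a probe set of their own. They were taken by name, as every probe set annotated to them: 29 of 54613 human probe sets. The members were chosen by name with the differences between these 2 arrays already known, above all those of VEGFA and CITED2. Their differences are therefore a description and carry no test. VEGFA was 2.84-fold lower with PML4, and its 4 probe sets all lay between 2.15-fold and 2.84-fold lower. CITED2, which restrains the hypoxia response, was 2.48-fold higher. Of the other 7 genes with a usable signal 6 differed by less than 2-fold, EGLN3 was at least 1.77-fold lower, a minimum that leaves its size unknown, and ADM was too dim to be measured on either array. In bulk RNA, fewer cells making a transcript and less of it per cell cannot be told apart.

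RNA of K562, a human cell line of chronic myeloid leukaemia with the BCR-ABL fusion, was read on Affymetrix expression arrays. The PML4 array holds cells transduced with a retrovirus for PML4, an isoform of the promyelocytic leukaemia protein that scaffolds PML nuclear bodies. The control vector array holds cells given the empty retroviral vector pMSCV. Both cultures were grown in medium with serum and selected in G418 for 3 weeks, and the labels give no low-oxygen treatment for either. Each group is 1 array, so no value has a replicate error and no p-value is given. Whether the selected cells were a pool or a clone is not given in the sources used here.

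Hypoxia-inducible factor (HIF) is a dimer of an oxygen-labile alpha subunit, HIF-1 alpha from HIF1A or HIF-2 alpha from EPAS1, with the stable partner encoded by ARNT. With oxygen present, the prolyl hydroxylases encoded by EGLN1 and EGLN3 modify the alpha subunit, the VHL ubiquitin ligase then binds it, and it is degraded. Without oxygen the dimer binds a short DNA core and switches on VEGFA, BNIP3, ADM, EGLN3, CITED2 and enzymes of glycolysis. Most of this control acts on the protein, so alpha subunit mRNA is not a measure of HIF activity. VEGFA is also known to be switched on by ATF4, the transcription factor of the integrated stress response, with no lack of oxygen.

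The DNA core read by HIF is ACGTG or GCGTG, on either strand. Both were searched in the 250 bases before the start of each gene in the RefSeq promoter windows of GRCh38.p14, a part of the promoter only. Windows were found for 8 of the 10 genes, which leaves VEGFA and VHL. ACGTG was present for 3 of the 8, CITED2, EGLN1 and BNIP3, and either core for 6 of the 8, against 21.7% and 47.4% of 27305 genes with a window. Of the 10153 measured genes with a window, 28.4% held ACGTG and 63.6% either core. The windows of CITED2, EGLN1 and BNIP3 are printed because they hold the same core while their transcripts differed in direction and size. That of DDIT4 is added because it was the HIF target that was lower by the largest size. Each runs 5′ to 3′ on the strand of its gene, and capitals mark ACGTG on either strand. In CITED2 and BNIP3 the core reads the same on both strands as CACGTG, which is also the E-box bound by MYC and its relatives.
CITED2 (chr6:139374649-139374898, minus strand): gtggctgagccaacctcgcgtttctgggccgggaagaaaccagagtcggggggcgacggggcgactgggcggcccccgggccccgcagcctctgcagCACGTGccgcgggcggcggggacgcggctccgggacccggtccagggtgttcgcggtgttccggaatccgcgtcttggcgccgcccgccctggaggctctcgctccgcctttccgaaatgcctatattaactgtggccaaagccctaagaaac
EGLN1 (chr1:231422288-231422537, minus strand): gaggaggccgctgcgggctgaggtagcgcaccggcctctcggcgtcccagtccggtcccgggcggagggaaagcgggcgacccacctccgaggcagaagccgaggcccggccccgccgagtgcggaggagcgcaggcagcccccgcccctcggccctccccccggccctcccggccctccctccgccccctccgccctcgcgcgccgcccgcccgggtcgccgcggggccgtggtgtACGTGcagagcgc
BNIP3 (chr10:131981924-131982173, minus strand): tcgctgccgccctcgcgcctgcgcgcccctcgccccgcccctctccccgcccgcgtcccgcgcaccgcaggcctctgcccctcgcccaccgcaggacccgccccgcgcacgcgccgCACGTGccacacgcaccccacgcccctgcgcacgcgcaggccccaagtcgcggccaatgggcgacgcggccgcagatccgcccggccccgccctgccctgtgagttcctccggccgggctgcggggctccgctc
DDIT4 (chr10:72273674-72273923, plus strand): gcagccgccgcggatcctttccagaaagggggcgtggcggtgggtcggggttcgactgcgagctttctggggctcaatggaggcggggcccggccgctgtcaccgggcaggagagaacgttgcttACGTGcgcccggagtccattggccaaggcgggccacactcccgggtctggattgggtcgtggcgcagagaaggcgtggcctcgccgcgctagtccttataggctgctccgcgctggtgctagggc
Counted back from the annotated start, the core began 152 bases before it in CITED2 on the coding strand, 13 bases in EGLN1, 133 in BNIP3 and 125 in DDIT4. CITED2 has 3 annotated starts, and the other 2 windows held GCGTG but not ACGTG. BNIP3 also held GCGTG 4 times, all on the opposite strand. A match is a run of letters and was not tested as a binding site.

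The values are MAS5 signals, a linear intensity per probe set scaled by the authors so that both arrays have the same trimmed mean. A probe set was measured when it lay above 72.4 on at least 1 array, which is the median of the human probe sets when both arrays are pooled. Dimmer signals were set to this floor, and where that happened on 1 array the size given is a minimum. A gene was called when its brightest measured probe set differed by at least 2-fold. Of 12541 measured genes, 1.23% were called higher and 3.21% lower with PML4, and 44.7% were higher by any size. The split moved with the scaling: 154 genes were called higher and 402 lower as deposited, 196 and 281 after quantile normalization, and 189 and 277 after loess centring. Across 19460 pairs of probe sets that read the same gene, the median gap between their log2 differences was 0.30, which is the only spread these arrays give.

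The labels were checked before the results. PML was read by 10 probe sets, of which 2 were called higher, the larger at 698.5 on the PML4 array and 98.1 on the control vector array, and 1 was called lower, at 156.5 with PML4 and 927.2 with the vector. PML probe sets thus disagreed in direction, and the positions of the probes against the transduced cDNA were not used here. Of 8 markers of the erythroid K562 line, 6 were named by an own probe set and all 6 were above the floor on both arrays, with summed signals of 40718.5 with PML4 and 29719.8 with the vector. HBZ, the embryonic zeta-globin, was the only one of them called, higher at 5465.5 with PML4 and 1401.4 with the vector, and TAL1 was at 1861.8 with PML4 and 2679.9 with the vector. Of 7 endothelial markers, the cells best known to answer VEGFA, PECAM1 alone was measured, and CDH5, VWF, TIE1 and CLDN5 were at 17.2 or less on both arrays. Of 6 fibroblast markers 2 were measured, COL1A1 and DCN, and the summed signal of all 6 was 431.1 with PML4 and 632.1 with the vector. Of 5 lymphocyte markers 3 were measured. CD3D was called higher, at 4996.3 with PML4 and 2478.0 with the vector. PTPRC was called lower, at 470.9 with PML4 and 1067.2 with the vector. CD3E was at 55.3 with PML4, under the floor, and at 105.9 with the vector. The summed signals were 5532.8 with PML4 and 3708.7 with the vector, while the medians were 263.1 with PML4 and 586.55 with the vector. The part of other cell types in the results below was not tested beyond these values.

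VEGFA, the growth factor that drives blood vessel growth, was lower with PML4 in every probe set that reads it. Its brightest probe set, 210512_s_at, had a signal of 3588.5 on the PML4 array and 10205.7 on the control vector array. The probe set 212171_x_at was at 1039.7 with PML4 and 2910.7 with the vector, which is 2.80-fold lower. The dimmer 211527_x_at was at 223.1 with PML4 and 590.4 with the vector, 2.65-fold lower, and 210513_s_at was at 206.5 with PML4 and 444.8 with the vector, 2.15-fold lower. All 4 were above the floor on both arrays, and their log2 differences, from -1.51 to -1.11, averaged -1.38. They carry the suffix _s_at or _x_at, which Affymetrix gave to probe sets that can match several transcripts, so no VEGFA probe set is free of it. By log2 difference VEGFA ranked 72 from the bottom of 12541 genes. Of 23607 measured probe sets, 3.05% were called lower. Among the 3136 genes whose mean log2 signal reached its 75th percentile, of which 0.702% were called lower, VEGFA ranked 3 from the bottom.

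**Figure D1:**
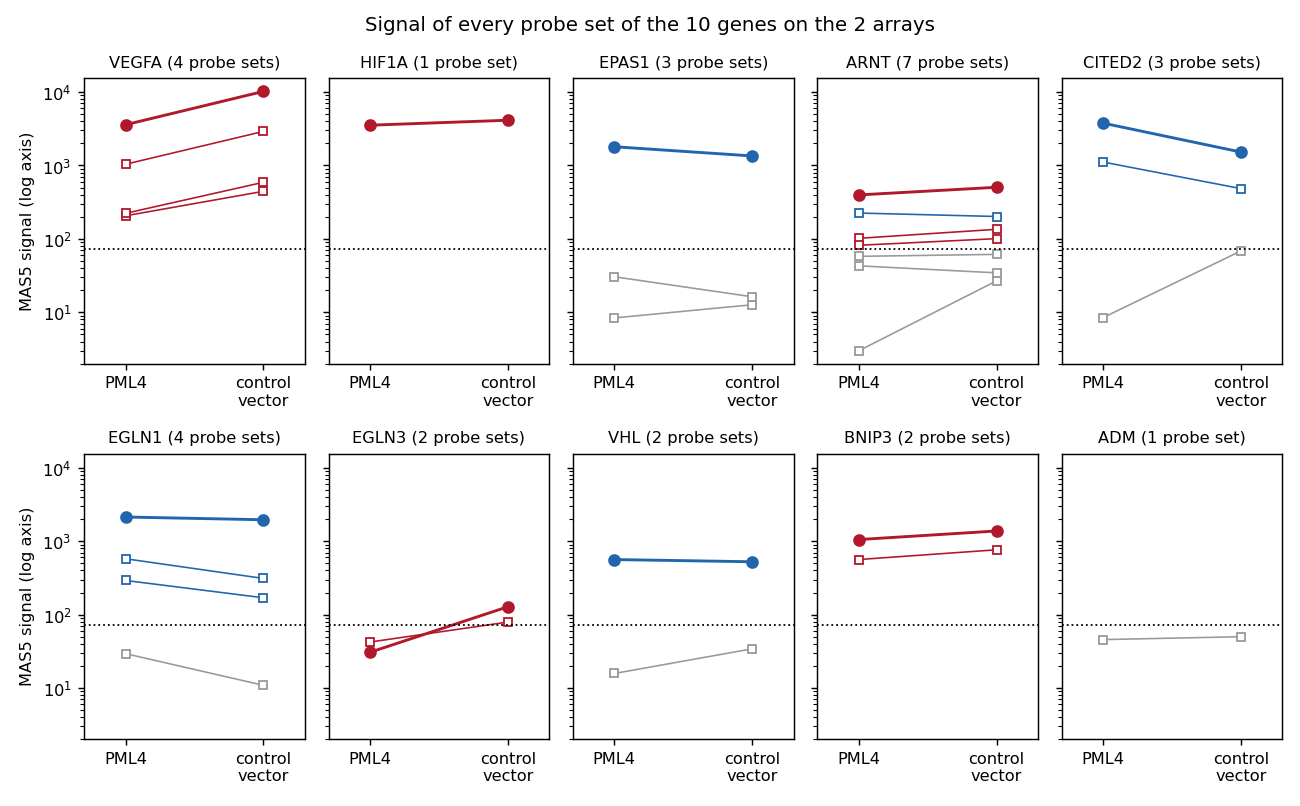
MAS5 signal (log axis) of each of the 29 probe sets on the PML4 array and the control vector array, 1 panel per gene. Filled circles are the probe set that stands for the gene, red lines are lower and blue lines higher with PML4, grey lines lie under the floor of 72.4 (dotted) on both arrays. All 4 VEGFA lines run lower with PML4, the 2 measured CITED2 lines run higher, and ADM stays under the floor.

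CITED2 was the only one of the 10 genes called higher. It encodes a co-regulator that is itself switched on by HIF and competes with the HIF alpha subunits for the coactivators CBP and p300. The probe set 209357_at was at 3770.5 on the PML4 array and 1521.3 on the control vector array, 2.48-fold higher. The probe set 207980_s_at was at 1113.0 with PML4 and 483.9 with the vector, 2.30-fold higher, while 227287_at did not reach the floor, at 8.5 with PML4 and 68.8 with the vector. Of all measured probe sets, 1.33% were called higher. CITED2 ranked 55 from the top of 12541 genes, and 4 from the top of the same 3136 genes, of which 0.51% were called higher. Its relative CITED1 was also called higher, 2.23-fold in its single probe set, at 514.4 with PML4 and 230.4 with the vector, but with a floor at the 75th percentile its log2 difference was 0.15. CITED4, the other measured relative, was just above the floor with PML4, at 74.1, and at 19.0 with the vector. The coactivators themselves were close on the arrays: EP300 was at 1253.8 with PML4 and 1287.5 with the vector, and CREBBP at 2302.5 with PML4 and 2249.2 with the vector.

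The HIF subunits were not called. HIF1A had 1 probe set, at 3535.9 on the PML4 array and 4132.2 on the control vector array, 1.17-fold lower. EPAS1 was at 1799.1 with PML4 and 1348.1 with the vector in 200878_at, 1.33-fold higher, and its other 2 probe sets were at 30.5 or less on both arrays. ARNT was at 397.2 with PML4 and 505.0 with the vector in 218221_at, 1.27-fold lower. Of the 4 measured ARNT probe sets, 3 were lower and 230619_at was higher, at 225.1 with PML4 and 201.9 with the vector, and the other 3 of its 7 probe sets were under the floor. The 2 alpha subunits thus lay on opposite sides of 0, at log2 differences of -0.22 and 0.42, the first smaller and the second larger than the median gap of 0.30 between probe sets of a gene.

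The oxygen sensors EGLN1 and EGLN3 lay on opposite sides of 0. The brightest EGLN1 probe set differed by less than the median gap of 0.30 between probe sets of a gene. EGLN1, the main prolyl hydroxylase of HIF-1 alpha, was at 2133.5 on the PML4 array and 1957.8 on the control vector array in 223046_at, 1.09-fold higher. Its dimmer probe sets gave larger differences: 221497_x_at was at 576.2 with PML4 and 310.9 with the vector, 1.85-fold higher, and 224314_s_at was at 291.7 with PML4 and 169.6 with the vector, 1.72-fold higher. All 3 measured EGLN1 probe sets were higher, but the size depends on which is read, and their mean log2 difference was 0.60 against 0.12 for the brightest. EGLN3, a hydroxylase strongly induced by HIF, was above the floor on the control vector array only. Its probe set 222847_s_at was at 30.7 with PML4 and 127.9 with the vector, at least 1.77-fold lower, and 219232_s_at was at 42.3 with PML4 and 79.2 with the vector. Both EGLN3 probe sets were lower with PML4, at signals near the floor. With a floor at the 25th percentile the log2 difference of EGLN3 was -2.06, past the size of a call, against a bound of -0.82 here. VHL, which recognises the hydroxylated alpha subunits, was at 562.2 with PML4 and 524.5 with the vector in 1559227_s_at, 1.07-fold higher, and its other probe set was under the floor.

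Of the remaining target genes among the 10, BNIP3 did not share the size of the VEGFA difference, and that of ADM is unknown. BNIP3, a mitochondrial protein that promotes mitophagy, was at 1052.2 on the PML4 array and 1377.6 on the control vector array in 201849_at, 1.31-fold lower. Its other probe set was at 562.6 with PML4 and 763.6 with the vector, 1.36-fold lower, so both agree in direction and size. ADM, which encodes the vessel-relaxing peptide adrenomedullin, was at 45.7 with PML4 and 50 with the vector in its single probe set, under the floor, so no fold is given. Across the 9 measured genes, 4 were higher and 5 lower, with 1 call each way and a median log2 difference of -0.22, against -0.05 for all measured genes. That is 44.4% higher by any size, against 44.7% of all measured genes. The calls are 11.1% each way, against 1.23% of all measured genes called higher and 3.21% called lower. The members were chosen with these differences known.

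Most other regulators of HIF were close on the arrays in their brightest probe sets. Of 18 listed genes 14 were measured, 10 higher (71.4%, against 44.7% of all measured genes) and 4 lower by any size. CITED1 was the only call, which is 7.14% called higher, against 1.23% of all measured genes. None was called lower, against 3.21%. Their median log2 difference was 0.08, and 13 of 14 differed by less than 1.5-fold, as did 82.5% of all measured genes. In both counts genes at the floor on 1 array, such as CITED4, were taken at their minimum size. The subunits of the VHL ubiquitin ligase with the highest signals were ELOB at 7591.3 with PML4 and 6671.8 with the vector, ELOC at 7306.5 with PML4 and 7003.5 with the vector, and RBX1 at 6503.7 with PML4 and 5800.6 with the vector. CUL2, its scaffold, was at 2134.8 with PML4 and 1649.8 with the vector, 1.29-fold higher. HIF1AN, the asparaginyl hydroxylase that blocks the alpha subunits from CBP and p300, was at 778.9 with PML4 and 705.4 with the vector. SIAH2, a ligase that degrades prolyl hydroxylases, was the lowest of the list, 1.32-fold lower at 644.4 with PML4 and 850.4 with the vector. EGLN2, HIF3A and ARNT2 were under the floor on both arrays. CUL2, HIF1AN, SIAH2, CITED4, EP300 and CREBBP were named after their values were seen.

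Beyond the 10 genes, HIF targets were split almost evenly in direction. Of 51 listed targets 41 were measured, 20 higher and 21 lower by any size, with a median log2 difference of -0.03. By their brightest probe sets none was called higher, against 1.23% of all genes. Called lower were 2 of the 41 (4.88%, against 3.21% of all genes), DDIT4 and STC2. The difference of VEGFA lay 1.48 below the median of these targets on the log2 scale, with only DDIT4 as low or lower and the other 40 above it. VEGFA and the targets were not compared by a test.

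No target of glucose metabolism was called, against 1.23% of all measured genes called higher and 3.21% called lower. All 19 measured genes, of 20 listed, differed by less than 1.5-fold in their brightest probe sets, as did 82.5% of all measured genes. Of the 19, 12 were higher (63.2%, against 44.7% of all measured genes) and 7 lower, with a median log2 difference of 0.06. GAPDH was at 24815.3 with PML4 and 20886.8 with the vector, LDHA, lactate dehydrogenase, at 17525.6 with PML4 and 16118.5 with the vector, and ENO1, an enolase, at 16216.2 with PML4 and 15621.8 with the vector. The glucose transporter SLC2A1 was 1.41-fold higher, at 687.5 with PML4 and 487.3 with the vector. PDK1, the kinase that keeps pyruvate out of mitochondria and a HIF target in many cells, was 1.24-fold lower, at 801.6 with PML4 and 991.9 with the vector. PFKFB4 and ENO2, the ends of the list, were 1.46-fold higher and 1.48-fold lower, and these 4 genes were named after their values were seen.

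The other HIF targets spread further. Of 31 listed genes 22 were measured, 8 higher and 14 lower, with a median log2 difference of -0.11. DDIT4, an inhibitor of mTORC1 that both HIF and ATF4 switch on, was at 3236.0 on the PML4 array and 11645.4 on the control vector array, 3.60-fold lower in its single probe set. STC2, a secreted glycoprotein that is likewise induced by hypoxia and by stress of the endoplasmic reticulum, was at 234.1 with PML4 and 480.5 with the vector, 2.05-fold lower. STC2 did not reach 2-fold after any rescaling of the arrays, with log2 differences of -0.99 to -0.94. At the other end TFRC, the transferrin receptor, was 1.80-fold higher, at 31653.7 with PML4 and 17625.2 with the vector. Its next brightest probe set was at 23756.4 with PML4 and 11666.0 with the vector, 2.04-fold higher and past the size of a call. The dimmest measured one was 1.44-fold higher. TFRC was not called because the brightest probe set decides. In the other direction, dimmer probe sets of CCNG2 and P4HA2 were 2.36-fold and 2.28-fold lower, named after their values were seen. MIF, a cytokine, was at 17028.6 with PML4 and 11923.4 with the vector, 1.43-fold higher, and BHLHE40, a repressor, at 13642.7 with PML4 and 11992.3 with the vector. Other targets lay on both sides. ANKRD37 was at 411.0 with PML4 and 326.2 with the vector, KDM3A at 2284.4 with PML4 and 1971.7 with the vector, BNIP3L, the relative of BNIP3, at 5084.7 with PML4 and 4737.1 with the vector, and P4HA1 at 1913.7 with PML4 and 2121.8 with the vector. NDRG1 was 1.49-fold lower, at 177.2 with PML4 and 264.7 with the vector, and ANGPTL4 was above the floor on the control vector array only, at 30.5 with PML4 and 116.2 with the vector, at least 1.61-fold lower. MXI1, a MYC antagonist, was 1.82-fold lower, at 1301.9 with PML4 and 2364.2 with the vector. ANKRD37 and the 6 genes after it were named after their values were seen. LOX, CXCR4, EPO, HMOX1, EDN1, VLDLR and RORA were under the floor on both arrays, and CA9 was not analysed here because no probe set named it alone.

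**Figure D2:**
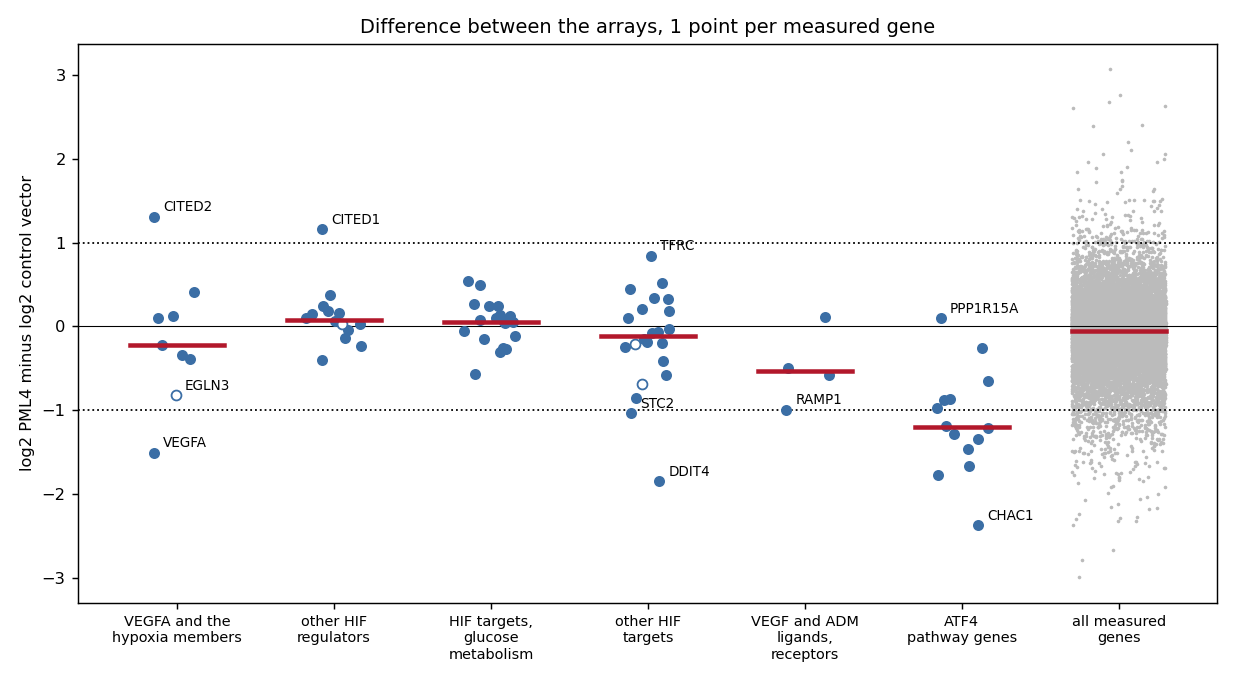
Log2 difference, PML4 minus control vector, with 1 point per measured gene of each list and of all genes; open points are lower bounds with 1 side at the floor, red bars are medians and dotted lines mark 2-fold. VEGFA at -1.51 lies below all measured HIF targets but DDIT4, whose 2 lists have medians of 0.06 and -0.11, and among the ATF4 pathway genes, whose median is -1.20.

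Targets with and without ACGTG in the promoter window both had medians near 0. The split was by ACGTG alone, so genes without it can still hold GCGTG. Either core stood in the window of 40 of 46 targets (87.0%). ACGTG stood in the window of 30 of 46 targets (65.2%), measured or not, against 21.7% of all genes with a window and 28.4% of measured ones. The 26 measured targets with ACGTG had a median log2 difference of -0.13, and the 12 without it 0.05. Over all measured genes with a window the medians were -0.02 for 2881 with ACGTG and -0.04 for 7272 without it. Among the windows printed above, ACGTG stood in a gene that was 2.48-fold higher, CITED2, and in one that was 3.60-fold lower, DDIT4. It also stood in 2 that were not called, EGLN1 and BNIP3.

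Genes of VEGF and adrenomedullin signalling were mostly under the floor. Of 13 listed ligands and receptors 4 were measured, 3 of them lower, none called, with a median log2 difference of -0.54. Of all measured genes 55.3% were lower by any size, 1.23% were called higher and 3.21% called lower. PGF, the placental growth factor, was at 2172.8 on the PML4 array and 3058.5 on the control vector array, 1.41-fold lower. That signal came from a probe set ending in _x_at. The other PGF probe set was under the floor, at 17.8 with PML4 and 12.0 with the vector, so the difference rests on 1 probe set. VEGFB, another VEGF ligand, was at 262.8 with PML4 and 393.8 with the vector, a log2 difference of -0.58. RAMP1, a partner of the receptors for adrenomedullin and its relatives, was at 114.9 with PML4 and 229.3 with the vector, a log2 difference of -0.997, just short of a call. FLT1, a VEGFA receptor, was at 188.3 with PML4 and 174.2 with the vector in 1 probe set, and its other probe sets were under the floor. KDR, the main signalling receptor of VEGFA, and the co-receptors NRP1 and NRP2 were under the floor on both arrays, as were VEGFC, FLT4, CALCRL, RAMP2 and RAMP3.

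The VEGFA difference of -1.51 lay closer to the median of ATF4 pathway genes than to that of the HIF targets, a comparison with no test. Of 14 such genes, all measured, 13 were lower with PML4 and 8 were called lower (57.1%, against 3.21% of all genes), with a median log2 difference of -1.20. This list was chosen with that result known and is no independent evidence of it. ATF4 itself was at 12011.1 with PML4 and 18865.1 with the vector, 1.57-fold lower. DDIT3, the transcription factor CHOP, was at 1435.9 with PML4 and 4580.0 with the vector, and ATF5 at 613.8 with PML4 and 2097.6 with the vector. CHAC1, which degrades glutathione, was at 152.8 with PML4 and 792.3 with the vector, ASNS, asparagine synthetase, at 8509.4 with PML4 and 19694.7 with the vector, and XPOT, a tRNA exporter, at 11661.7 with PML4 and 13995.0 with the vector. PPP1R15A, the phosphatase subunit that ends the stress response, was at 2063.4 with PML4 and 1928.6 with the vector in its brightest probe set, and at 900.7 with PML4 and 1147.4 with the vector in the other, so its probe sets disagreed in direction. It was named after its value was seen.

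**Figure D3:**
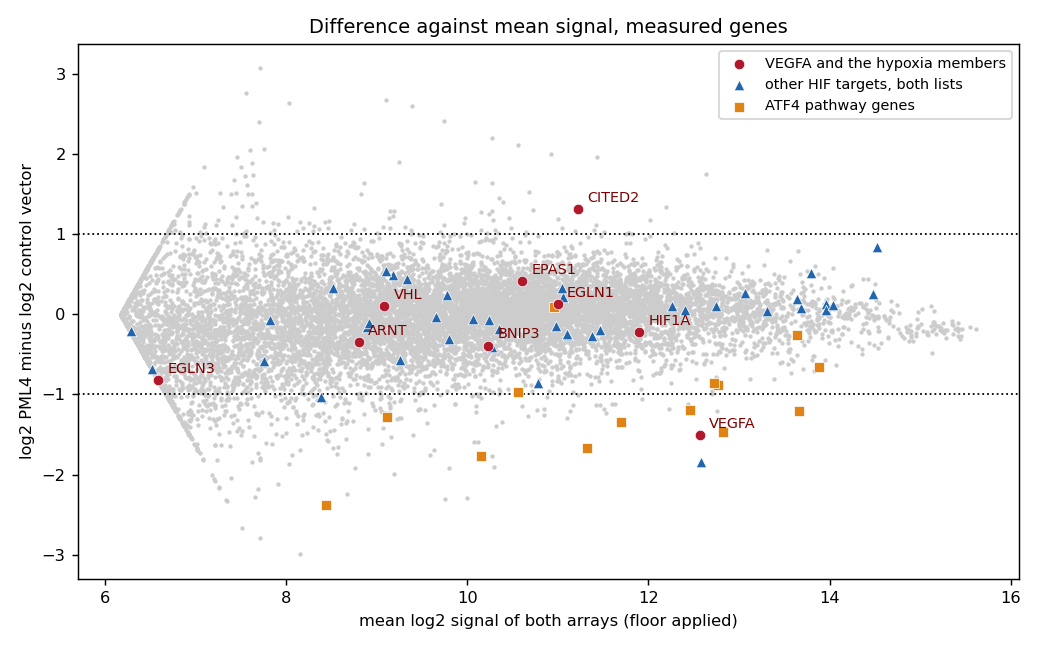
Log2 difference, PML4 minus control vector, against the mean log2 signal of both arrays after the floor, for all measured genes (grey), the 9 measured hypoxia genes (red circles), the other HIF targets (blue triangles) and ATF4 pathway genes (orange squares); dotted lines mark 2-fold. VEGFA at -1.51 lies beside the orange squares and DDIT4 at -1.85, while the other blue triangles lie between -1.04 and 0.84.

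The genes nearest to VEGFA in their difference were then listed, a likeness over 2 arrays and thus over 1 value per gene. Candidates were the 596 genes above the floor on both arrays, within 2-fold of the mean signal of VEGFA and with at least 2 measured probe sets all differing one way. The nearest was TRIB3, a stress-induced pseudokinase, at 4349.6 on the PML4 array and 12036.6 on the control vector array, with a gap of 0.04 on the log2 scale. SLC7A11, the cystine transporter, followed at 2088.1 with PML4 and 5297.6 with the vector and a gap of 0.16. SAT1, which acetylates polyamines, was at 3193.1 with PML4 and 7210.7 with the vector, TRAK2, a mitochondrial transport adaptor, at 2151.7 with PML4 and 4686.7 with the vector, and CTH, which makes cysteine from cystathionine, at 2106.4 with PML4 and 4558.5 with the vector. Their gaps were 0.33, 0.38 and 0.39. Every gene named here was lower by a smaller size than VEGFA, which was itself among the lowest genes of high signal. TRIB3 and SLC7A11 also stand on the list of ATF4 pathway genes, which was chosen with its result known. Their place here is therefore no independent evidence of a likeness to that list. Candidates needed at least 2 measured probe sets, which left out DDIT4, a HIF target with a single probe set and a log2 difference of -1.85.

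**Figure D4:**
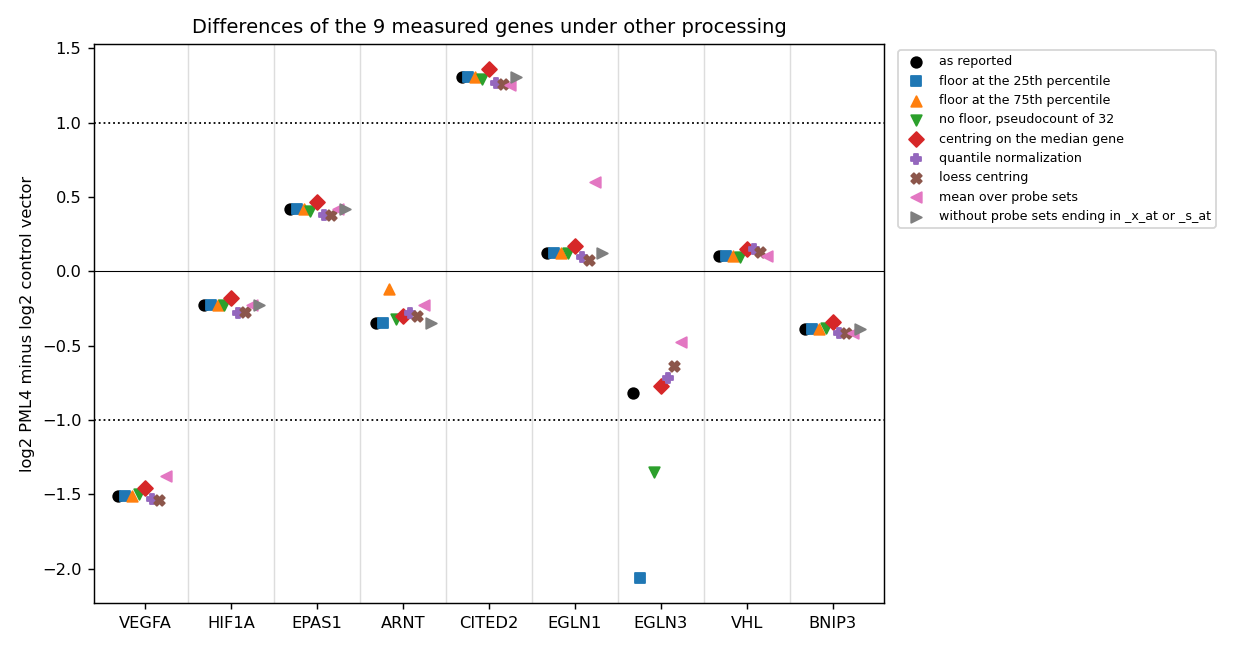
Log2 difference, PML4 minus control vector, of each of the 9 measured genes as reported (black) and under each other processing that gave the gene a value; dotted lines mark 2-fold. VEGFA stays between -1.54 and -1.38 and CITED2 between 1.26 and 1.36, while EGLN3 runs from -2.06 to -0.48 with the floor and the probe sets used.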

How the data were processed

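Total RNA of 1 PML4 array and 1 control vector array was analysed. The deposited intensities are linear MAS5 signals, per the submitters' processing notes, which give no version or settings. Their mean after trimming 2% at each end was 500.1 with PML4 and 500.0 with the vector. Scaling was kept as deposited. Of 54675 probe sets, 62 control probe sets were set aside. GEO's annotation of the array gave 1 gene for 41091 human probe sets, several for 1801 and none in the table used for 11721, and only the first were named. Of the first, 41037 matched a current Entrez identifier and none changed symbol. The annotation names no genome build. Promoter sequences are RefSeq's, on GRCh38.p14.

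For this text, the floor, the 2-fold call and the brightest measured probe set per gene were used as described above, with Python 3.11.15, pandas 2.3.3 and statsmodels 0.14.6. With 1 array per group no test was run, and the number of arrays limits every value. The procedure was run on simulated data with little noise and known changes larger than 2-fold. That run checks the code only and gives no error rate for the calls on these arrays. Named were all probe sets of the 10 genes, from each other list the calls (at most 5 each way) and the 3 genes of highest signal, and the 5 genes nearest to VEGFA. Alternatives were a lower and a higher floor (25th or 75th percentile), a pseudocount of 32, centring, quantile normalization, loess (span 0.4), the mean over probe sets, leaving out _x_at and _s_at probe sets, and calls at 1.5-fold and 3-fold. Members and lists were chosen with earlier results of these data known.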

Additional observations from a re-analysis of the deposited data

How the results depend on the processing

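VEGFA stayed lower under all 7 alternatives that gave it a value, between -1.54 and -1.38, and CITED2 higher under all 8, between 1.26 and 1.36. Without the _x_at and _s_at probe sets VEGFA, EGLN3 and VHL had no value. The gap between VEGFA and the median HIF target stayed between -1.56 and -1.35. EGLN3 was at -2.06 with the lower floor (25th percentile), -1.35 with a pseudocount and -0.48 with the mean over probe sets, where EGLN1 was at 0.60. ADM was measured only with the lower floor, at -0.13. HIF targets called lower numbered 4 with the lower floor and with calls at 1.5-fold, and 1 with the higher floor (75th percentile), centring, quantile normalization, loess centring, the mean over probe sets, probe sets without those endings and calls at 3-fold. Called higher was 1 target at 1.5-fold. The median of the VEGF and adrenomedullin list was -0.997 without those probe sets, which left RAMP1 alone. With the higher floor CITED1 was at 0.15 and STC2 at -0.05, since that floor lies near or above their signals, and STC2 was also short of 2-fold with a pseudocount, at -0.95, and with the mean over probe sets, at -0.90. Over all genes, 667 were called higher and 2000 lower with the lower floor, 50 and 63 with the higher one, 715 and 1484 at 1.5-fold, and 27 and 59 at 3-fold. Among VEGFA, CITED2, CITED1, DDIT4 and STC2 no call changed sign under the alternatives that gave it a value; the ATF4 pathway genes were recomputed only as a list median. No paired analysis was possible because each group holds 1 array.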
